A study of Mus musculus with 12 samples.

Results

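Collagen genes and the discoidin domain receptors Ddr1 and Ddr2 were taken from the gene-level read counts of neural stem/progenitor cells (NSPCs) by their symbols. Every row named Col, a number, a and a number, together with Ddr1 and Ddr2, was kept. These 46 genes, 44 collagen genes and 2 receptors, were members of a table of 24525 genes. Of the 46, 26 passed the filter on low counts and were tested (24 collagens and both receptors), and the other 20 did not.

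The libraries were the input RNA-seq libraries of an m6A experiment that asked how loss of the m6A reader Ythdf2 affects transcripts in the embryonic brain, and Ddr2 was a candidate of that study. NSPCs of C57BL/6 mice were grown as neurospheres, which are floating spheres cultured with EGF and bFGF, from E14.5 embryos and were used at passage P1. There were 3 wild-type and 3 Ythdf2-/- libraries, and the Ythdf2-/- animals carried a germline deletion of the 5′ UTR and exon 1 obtained with LoxP sites and a ubiquitously expressed Cre. The 6 m6A-IP samples were not analysed here.

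Collagens are triple-helical proteins built from α chains, and each gene encodes a single kind of chain. Fibrillar collagens assemble into cross-banded fibrils, collagen IV forms the network of basement membranes, and the fibril-associated collagens with interrupted triple helices (FACITs) bind to fibril surfaces. Ddr1 and Ddr2 are receptor tyrosine kinases that are activated by native collagen. Ddr1 responds to fibrillar collagens and collagen IV, and Ddr2 mainly to fibrillar collagens. In the developing brain, collagens are best known from the meninges, the vessel walls and the pial basement membrane on which radial glia rest.

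Between 11029827 and 13185778 reads per library were counted, and the 46 genes took 0.0857% to 0.128% of them. Ythdf2 was counted 840, 961 and 999 times in the wild-type libraries and 137, 198 and 138 times in the Ythdf2-/- libraries, in the direction of the labels. All 12 neural stem and progenitor markers passed the filter. Of 12 fibroblast markers 4 passed the filter and 5 never reached 10 counts, and of 10 endothelial markers 6 never reached 10 counts and Cldn5 was at 0 in every library. Wild-type replicate 3 stood apart from the other 5 libraries, at 91 on a first principal component on which the others lay between -30.6 and -6.04. Its summed neural stem and progenitor markers were the lowest (6105 CPM, counts scaled to the effective library size, against 8562 to 9527 in the others), and its summed astrocyte markers (8104 CPM against 1589 to 3685) and oligodendrocyte lineage markers (4502 CPM against 1643 to 1918) were the highest. Within the stem and progenitor list, Nes, Vim and Fabp7 were lowest in this library and 7 of the 12 genes were highest in it. Within the oligodendrocyte list, 7 of 10 genes were highest in it and Olig1, Olig2 and Cspg4 were lowest. Its summed neuron markers were also the highest (1963 CPM against 1230 to 1450), with Dcx at 315 CPM against 8.36 to 13.1 CPM. Within the neuron list, 5 of 8 genes were highest in it and Gap43 was lowest. Its summed pericyte and smooth muscle markers were the highest too (285 CPM against 179 to 278), with Pdgfrb at 31.8 CPM against 0.148 to 3.5 CPM. Within that list, 5 of 10 genes were highest in it and Kcnj8, Acta2, Myh11 and Cspg4 were lowest. Some markers also lay apart between the genotypes. Gfap was at 437, 625 and 3046 CPM in wild type and at 127, 87.7 and 5.55 CPM in Ythdf2-/-. Cspg4 was at 96.8, 94.9 and 89.9 CPM against 127, 145 and 110 CPM. In Ythdf2-/-, 6 stem and progenitor markers were higher and 6 lower, and 3 astrocyte markers were higher and 5 lower. The part of such differences in the members' values was not tested. Reads on 4 Y-linked genes were present in wild-type replicates 1 and 2 and Ythdf2-/- replicate 3 and absent from the other 3 libraries. Nothing in the labels says whether the libraries of a genotype came from separate embryos, so the p-values measure the spread between these libraries. In bulk RNA, fewer cells that express a gene and less RNA per cell cannot be told apart.

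The members spanned a wide range of levels. To compare genes, CPM values were divided by gene length in kilobases (RPKM). Ddr1 had by far the highest mean over the 6 libraries, at 136 RPKM (range 122 to 147), and made up 39.9% to 51.7% of all reads counted on the 46 genes. It was followed by the FACIT chains Col9a3 at 20.4 RPKM (range 11.1 to 35) and Col16a1 at 12.9 RPKM (range 8.17 to 29.8), then by Col4a5 at 12.2 RPKM, Col5a2 at 9.53 RPKM, Col4a1 at 7.42 RPKM and Col11a1 at 6.63 RPKM. The range of Ddr1 lay above those of all 6 collagens, and the ranges of Col9a3 and Col4a5 lay above that of Col4a1. Each of the 6 overlapped its neighbour in the order over libraries. Within libraries, Col9a3 was above Col16a1 in all 6, whereas Col16a1 was above Col4a5 only in wild-type replicate 3. The order also differed between the genotypes, as Col5a2 was the 7th of the 26 by its mean in wild type and the 3rd in Ythdf2-/-. Ddr2 was the 18th in wild type, with a mean of 0.993 RPKM, and the 9th in Ythdf2-/-, with 3.2 RPKM. The classic chains of connective tissue were nearly absent. Col1a1, Col1a2, Col2a1 and Col3a1, which build the main fibrils of bone, skin, cartilage and vessel walls, had at most 12 counts in any library.

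**Figure D1:**
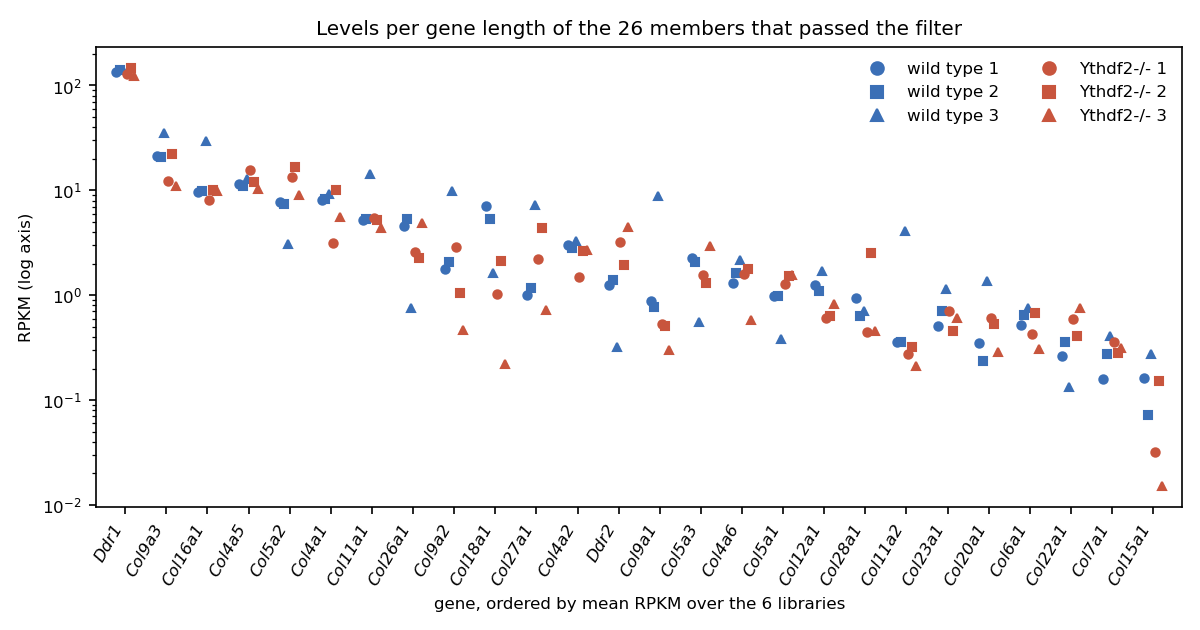
RPKM on a log axis for the 26 collagen and Ddr genes that passed the filter, ordered by their mean over the 6 libraries, with wild type in blue, Ythdf2-/- in red and a marker for each replicate number. Ddr1 lies between 122 and 147 RPKM in every library, and the blue triangles of wild-type replicate 3 lie apart from the other wild-type points for Col9a1, Col11a2, Col16a1, Ddr2 and Col5a2, among others.

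Across all genes, edgeR's quasi-likelihood test called 0 of 13112 genes (0.00%) at an adjusted p under 0.05, and 476 (3.63%) had an unadjusted p under 0.05. DESeq2 called 31 genes (0.236%) and none of the members. The adjusted p of every member tested was 0.999. At an unadjusted p under 0.05, DESeq2 had 7 members (beside 4.27% of all genes). At the same threshold limma-voom, which called 0 genes after adjustment, had 6 (beside 3.47%). With the edgeR test there were 6 of the 26 members, beside 3.63%. Of these, Ddr2, Col5a2 and Col22a1 were higher in Ythdf2-/- (3 of 26, beside 1.81% of all genes tested), and Col9a1, Col12a1 and Col18a1 were lower (3 of 26, beside 1.82%). The 3 libraries of 1 genotype lay entirely apart from those of the other for 8 members, beside 10.2% of all genes tested. In 4 of them the Ythdf2-/- libraries were higher (Ddr2, Col5a1, Col5a2 and Col22a1, beside 5.24%) and in 4 they were lower (Col4a2, Col9a1, Col11a2 and Col12a1, beside 4.92%). The median log2 fold change, Ythdf2-/- over wild type, was -0.41 over the 26 members and -0.01 over all genes tested, and 8 members were higher and 18 lower. Without wild-type replicate 3 the members' median was -0.14, with 9 higher and 18 lower of 27 tested. In that setting 10 of the 27 members did not overlap, beside 38.9% of all genes tested. Without Ythdf2-/- replicate 2, 11 of the 26 members were lower without overlap, beside 11.1% of all genes tested. How many members had an unadjusted p under 0.05 changed with the library left out. Without Ythdf2-/- replicate 1 it was 2 (Col9a2 and Col12a1, beside 1.85% of all genes). Without Ythdf2-/- replicate 3 it was also 2 (Col5a2 and Col12a1, beside 2.13%). Leaving out Ythdf2-/- replicate 2 gave 7 of 28 (beside 4.14%). Leaving out wild-type replicates 1 and 2 in turn gave 5 of 28 and 6 of 27 (beside 2.82% and 2.66%). Leaving out wild-type replicate 3 gave 6 of 27, but there 16.6% of all genes passed the same threshold.

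When limma-voom was run with sample quality weights, which gave wild-type replicate 3 a weight of 0.0901, 632 genes (4.82%) had an adjusted p under 0.05, and 5 members were among them. Ddr2 (log2 fold change 1.29, adjusted p = 0.0407) and Col5a2 (0.74, adjusted p = 0.0496) were higher. Col18a1 (-2.82, adjusted p = 0.0407), Col12a1 (-0.85, adjusted p = 0.0419) and Col9a3 (-0.73, adjusted p = 0.0484) were lower.

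**Figure D2:**
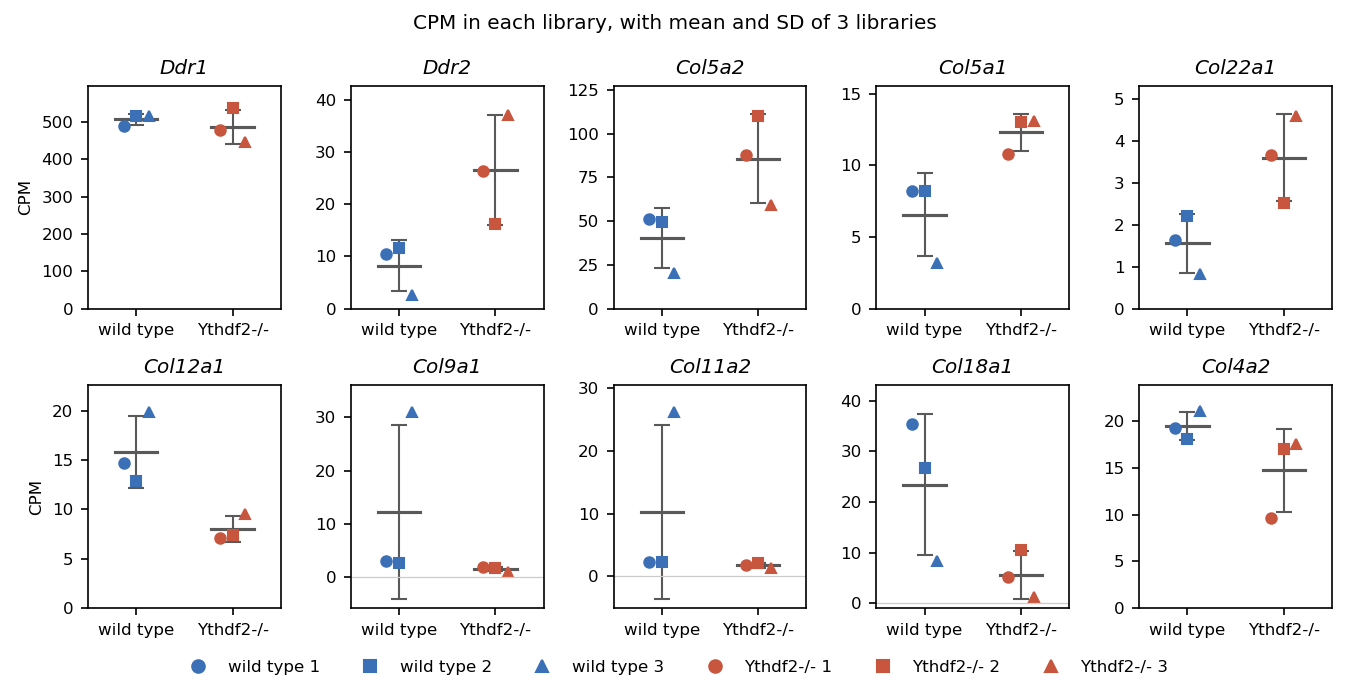
CPM of 10 genes in each library, with 1 point per library, horizontal lines for the mean and bars for the SD of 3 libraries. The Ythdf2-/- points of Ddr2, Col5a2, Col5a1 and Col22a1 all lie above the wild-type points, those of Col12a1 and Col4a2 all lie below them, and the wild-type means of Col9a1 and Col11a2 lie far from their other points because of the single high triangle of replicate 3.

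Of the receptors, Ddr2 was higher in every Ythdf2-/- library than in any wild-type library, and Ddr1 was at a similar level in both genotypes. Ddr2, on the minus strand of chromosome 1 (chr1:169972307-170088944, GRCm38), is a kinase of mesenchymal cells that responds to fibrillar collagens. It was counted 122, 152 and 29 times in wild type and 310, 217 and 460 times in Ythdf2-/-, that is 10.4, 11.6 and 2.65 CPM against 26.4, 16.1 and 37 CPM. The lowest value was in wild-type replicate 3 and the highest in Ythdf2-/- replicate 3, and the groups did not overlap. The means were 8.23 ± 4.86 CPM in wild type and 26.5 ± 10.5 CPM in Ythdf2-/- (SD, n = 3), a log2 fold change of 1.68 ± 0.581 (SE, edgeR quasi-likelihood test, unadjusted p = 0.0261, adjusted p = 0.999). Without wild-type replicate 3 the log2 fold change was 1.26 ± 0.355 (SE, adjusted p = 0.212). Among libraries with Y-linked reads, Ddr2 was at 37 CPM in the Ythdf2-/- library against a mean of 11 CPM in wild type, and among those without them at a mean of 21.3 CPM against 2.65 CPM. A fit with a term for these reads gave a log2 fold change of 2.30 (adjusted p = 0.187). The last exon of Ddr2 shares 90 bases with 3110045C21Rik on the opposite strand, and the strand setting of the counting is not given in the sources used here. The neighbour was counted 9 to 42 times per library, which is fewer reads than Ddr2 had in each of them. Of 12 fibroblast markers 4 passed the filter, and their summed level was 113 to 153 CPM in wild type and 130 to 158 CPM in Ythdf2-/-, mostly from Zic1, Prrx1 and Foxc1, with Dcn and Lum at no more than 5 counts. Zic1 was higher in every Ythdf2-/- library (67.8, 83.5 and 57.4 CPM against 53.8, 47.6 and 51.8 CPM) and was the 1 fibroblast marker with an unadjusted p under 0.05 (log2 fold change 0.45 ± 0.168, SE, unadjusted p = 0.0361, adjusted p = 0.999, edgeR quasi-likelihood test). Foxc1, like Ddr2, was lowest in wild-type replicate 3 (9.24 CPM) and highest in Ythdf2-/- replicate 3 (20.8 CPM). The other 2 that passed the filter, Prrx1 and Twist1, were lower (log2 fold changes of -0.22 ± 0.31 and -0.29 ± 0.935, SE). Prrx1 was highest in wild-type replicate 3 (88.1 CPM), and Twist1 was lowest there (0.183 CPM). The part of these 4 markers in the Ddr2 difference was not tested.

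The 250 bases before the RefSeq start of Ddr2 (GRCm38.p6, chr1:170088945-170089194, minus strand) hold no annotated exon and are printed because Ddr2 is the receptor whose groups lay apart. Capitals mark a match to TATAAA on either strand, and there was no GGGCGG or CCAAT on either strand.
Ddr2: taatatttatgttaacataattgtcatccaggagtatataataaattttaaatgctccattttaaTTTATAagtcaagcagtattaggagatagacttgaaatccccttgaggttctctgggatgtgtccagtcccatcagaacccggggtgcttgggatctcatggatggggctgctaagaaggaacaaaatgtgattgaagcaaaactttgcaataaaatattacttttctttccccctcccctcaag
This stretch was 37.6% G and C, whereas the median of all 300-base promoter windows of the table was 52.7%.

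Ddr1, the member of the pair best known from epithelia, lies on chromosome 17 and was counted 5718, 6763 and 5622 times in wild type and 5589, 7249 and 5539 times in Ythdf2-/-. In CPM it was 489, 516 and 515 against 477, 537 and 446, with overlapping groups. Its log2 fold change was -0.06 ± 0.144 (SE, adjusted p = 0.999, edgeR quasi-likelihood test), the smallest in size of the 26 members. The ratio of Ddr1 to Ddr2 in RPKM was lower in each Ythdf2-/- library (40.8, 75.7 and 27.3) than in each wild-type library (106, 101 and 439).

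The fibrillar class had 11 members, 6 of which passed the filter. None had an adjusted p under 0.05, and Col5a2 alone had an unadjusted p under 0.05. The log2 fold changes of the collagen V chains Col5a1 and Col5a2 were 0.91 and 1.08, and those of the collagen XI chains Col11a1 and Col11a2, close relatives that can assemble with collagen V, were -0.71 and -2.54 (-0.07 and -0.40 without wild-type replicate 3). The medians over the 6 genes were -0.05 with all libraries and 0.25 without wild-type replicate 3, with 3 higher and 3 lower in both cases, and 0.06 without Ythdf2-/- replicate 1.

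Col5a2, which encodes the α2 chain of collagen V, a minor collagen that governs the diameter of fibrils, had the highest mean RPKM of the fibrillar members in Ythdf2-/- (12.9), whereas in wild type Col11a1 had the highest (8.24 against 6.12 for Col5a2). Without wild-type replicate 3 the wild-type means were 5.27 for Col11a1 and 7.63 for Col5a2. Col5a2 was at 51.5, 49.4 and 20.6 CPM in wild type and at 88, 110 and 59.2 CPM in Ythdf2-/-. All 3 Ythdf2-/- libraries lay above the highest wild-type library, with the narrowest gap between wild-type replicate 1 and Ythdf2-/- replicate 3. The log2 fold change was 1.08 ± 0.398 (SE, unadjusted p = 0.0334, adjusted p = 0.999, edgeR quasi-likelihood test), or 0.76 ± 0.254 when wild-type replicate 3 was left out (adjusted p = 0.242). Among the libraries with Y-linked reads the difference was smaller, at 59.2 CPM against 50.4 CPM, than among those without them, at 98.8 CPM against 20.6 CPM. Col5a2 lies next to Col3a1 on chromosome 1, 24624 bases apart and convergent, and Col3a1 had at most 3 counts in any library.

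Col5a1, the α1 chain of collagen V on chromosome 2, was at 8.22, 8.24 and 3.2 CPM in wild type and at 10.8, 13 and 13.1 CPM in Ythdf2-/-. The groups did not overlap, and the Ythdf2-/- libraries lay close together. The log2 fold change was 0.91 ± 0.384 (SE, unadjusted p = 0.0543, adjusted p = 0.999, edgeR quasi-likelihood test), or 0.58 ± 0.177 when wild-type replicate 3 was left out. In RPKM, Col5a1 was between 0.0932 and 0.174 of Col5a2 in the 6 libraries, so the level of the α1 chain was far below that of the α2 chain in each. Col5a3, the third collagen V chain, overlapped between the genotypes, with 3.39 to 13.9 CPM in wild type and 7.92 to 18.1 CPM in Ythdf2-/-.

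The stretch before the start of Col5a1 (GRCm38.p6, chr2:27886175-27886380, plus strand, ending 44 bases before the start where an annotated exon of another Col5a1 transcript begins) is given beside that of Ddr2, since both genes were higher without overlap. Capitals mark GGGCGG on either strand, with 2 matches. It was 77.7% G and C, and it held neither TATAAA nor CCAAT.
Col5a1: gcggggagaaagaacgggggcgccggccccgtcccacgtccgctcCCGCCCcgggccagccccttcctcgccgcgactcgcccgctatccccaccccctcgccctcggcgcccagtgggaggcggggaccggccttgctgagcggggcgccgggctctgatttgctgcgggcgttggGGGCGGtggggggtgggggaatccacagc

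The collagen XI chains Col11a1 and Col11a2, which form the core of cartilage fibrils and occur in other tissues as well, differed between genotypes mainly through wild-type replicate 3. Col11a1 was at 40.1, 41.2 and 109 CPM in wild type and at 42.4, 40.3 and 33.4 CPM in Ythdf2-/-, with overlap. Its log2 fold change was -0.71 ± 0.418 (SE) with all libraries and -0.07 ± 0.132 without wild-type replicate 3. Col11a2 was at 2.31, 2.29 and 26.2 CPM in wild type and at 1.79, 2.07 and 1.37 CPM in Ythdf2-/-. Every Ythdf2-/- library was below every wild-type library, yet the log2 fold change moved from -2.54 ± 1.05 (SE, unadjusted p = 0.0505, adjusted p = 0.999, edgeR quasi-likelihood test) to -0.40 ± 0.322 (adjusted p = 0.568) without that library. Col27a1, a fibrillar collagen of cartilage, varied within both genotypes, with 7.62, 8.85 and 54.9 CPM in wild type and 17, 33.2 and 5.55 CPM in Ythdf2-/-. Its log2 fold change turned from -0.35 ± 0.946 to 1.17 ± 0.687 (SE) without wild-type replicate 3, and it was 0.08 without Ythdf2-/- replicate 3 and -1.06 without Ythdf2-/- replicate 2.

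Of the 6 collagen IV genes, 4 passed the filter and none had an unadjusted p under 0.05. Col4a1, Col4a2 and Col4a6 had lower means in Ythdf2-/-, Col4a5 had a slightly higher one, and the median log2 fold change of the 4 was -0.38. It was 0.00 without Ythdf2-/- replicate 3, -0.14 without Ythdf2-/- replicate 1 and -0.24 without wild-type replicate 3. Col4a1 and Col4a2 encode the α1 and α2 chains found in nearly all basement membranes, and Col4a3 to Col4a6 encode chains with a narrower distribution. In NSPCs the most abundant collagen IV gene per length was Col4a5, at 11.7 ± 0.949 RPKM in wild type and 12.6 ± 2.62 RPKM in Ythdf2-/- (SD, n = 3).

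Col4a1 was at 54, 55.3 and 61 CPM in wild type and at 20.9, 66.3 and 37.1 CPM in Ythdf2-/-. The wild-type libraries were tightly grouped, and the Ythdf2-/- libraries fell on both sides of them. Its log2 fold change was -0.45 ± 0.395 (SE, adjusted p = 0.999, edgeR quasi-likelihood test), and it was -0.12 without Ythdf2-/- replicate 1 and -0.96 without Ythdf2-/- replicate 2. Col4a2 was at 19.3, 18.1 and 21.1 CPM in wild type and at 9.64, 17 and 17.5 CPM in Ythdf2-/-. Its groups did not overlap, but 2 of the 3 Ythdf2-/- libraries were just under the lowest wild-type library, and the log2 fold change of -0.40 ± 0.262 (SE) became -0.16 without Ythdf2-/- replicate 1.

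These genes lie head to head on chromosome 8, with Col4a1 on the minus strand (11198423 to 11312826) and Col4a2 starting at 11312805 on the plus strand, so the main transcripts, whose positions are given here, overlap by 22 bases. Over all annotated transcripts the exons of the 2 genes share 85 bases. The protein holds more α1 than α2 chains. In RPKM, Col4a1 was 2.73, 2.98 and 2.82 times Col4a2 in wild type and 2.11, 3.79 and 2.07 times in Ythdf2-/-, so the wild-type libraries lay inside the wider range of the Ythdf2-/- libraries.

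Col4a5 was at 73.4, 69.6 and 81.5 CPM in wild type and at 99, 75.9 and 66.6 CPM in Ythdf2-/-, and its log2 fold change was 0.11 ± 0.177 (SE). Col4a6, which starts 1342 bases away on the other strand of the X chromosome, was at 8.64, 10.8 and 14.4 CPM against 10.6, 11.9 and 3.86 CPM, with a log2 fold change of -0.36 ± 0.449 (SE) that was 0.00 without Ythdf2-/- replicate 3. Both pairs of groups overlapped. The ratio of Col4a5 to Col4a6 in RPKM ranged from 5.91 to 18 over the 6 libraries. Col4a3 and Col4a4, the head-to-head pair on chromosome 1 whose products are chains of the kidney and cochlea, were below the filter with at most 21 counts.

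Fibrillar and collagen IV genes were then compared as sums of RPKM in each library. The fibrillar sum was 21.7 ± 6.98 RPKM in wild type and 24.2 ± 5.32 RPKM in Ythdf2-/-, and the collagen IV sum was 25.2 ± 2.19 and 22.6 ± 3.55 RPKM (SD, n = 3). The log2 ratio of the fibrillar to the collagen IV sum was -0.43, -0.44 and 0.10 in wild type and 0.14, 0.16 and -0.04 in Ythdf2-/-. Wild-type replicate 3 lay among the Ythdf2-/- libraries, and the other 2 wild-type libraries lay below all of them. The means were -0.26 ± 0.312 and 0.09 ± 0.112 (SD, n = 3), a difference of 0.34 on the log2 scale, which was 0.52 without wild-type replicate 3 and 0.20 when Col5a2 and Col4a5, the genes of each class with the highest mean RPKM over all 6 libraries, were left out. With Col15a1 and Col18a1 counted as basement membrane genes the difference was 0.53. No test was made of this score over chosen genes, and with 3 libraries against 3 an exact permutation test cannot go below 0.1.

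**Figure D3:**
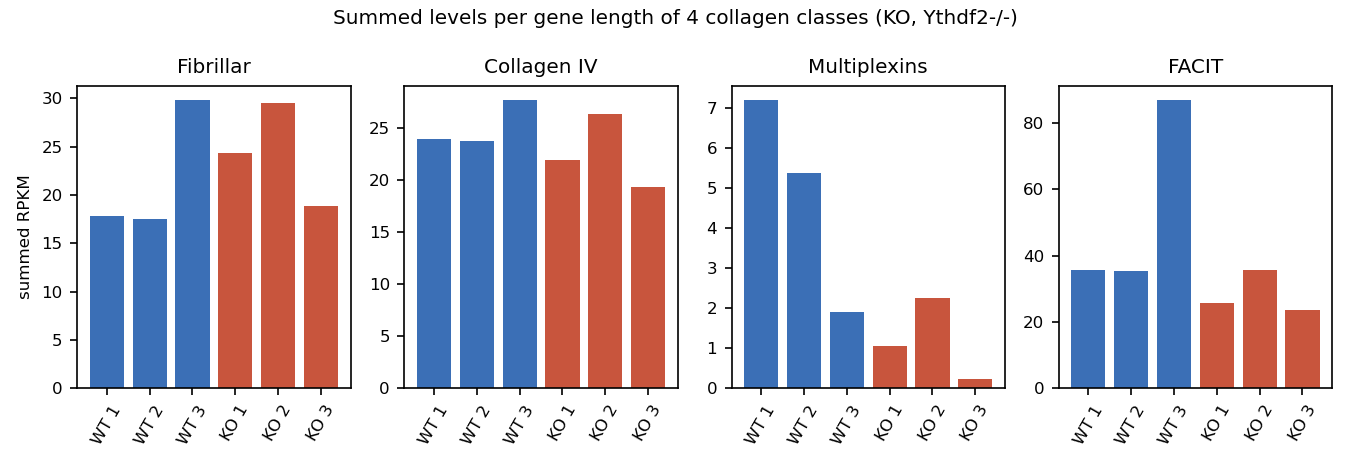
Summed RPKM of the fibrillar, collagen IV, multiplexin and FACIT genes in each library, with bars from 0, wild type (WT) in blue and Ythdf2-/- (KO) in red. The fibrillar and collagen IV sums overlap between genotypes, and the FACIT sum of 86.9 RPKM in wild-type replicate 3 stands above the 23.7 to 35.6 RPKM of the other libraries.

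The multiplexins of the basement membrane zone, Col15a1 and Col18a1, both passed the filter and both had lower means in Ythdf2-/-. Col18a1, the heparan sulfate collagen whose C-terminal fragment is endostatin, was at 35.4, 26.7 and 8.24 CPM in wild type and at 5.2, 10.6 and 1.13 CPM in Ythdf2-/-. Wild-type replicate 3 lay between Ythdf2-/- replicates 1 and 2, so the groups overlapped through that library alone. The log2 fold change was -2.05 ± 0.847 (SE, unadjusted p = 0.0498, adjusted p = 0.999, edgeR quasi-likelihood test). Leaving out wild-type replicate 3 gave -2.45 ± 0.699 (adjusted p = 0.216) and no overlap. Without Ythdf2-/- replicate 3, the lowest library, it was -1.57, and without Ythdf2-/- replicate 2, the highest of its genotype, it was -2.89. Among libraries with Y-linked reads Col18a1 was at 1.13 CPM in Ythdf2-/- against 31.1 CPM in wild type, but among those without them it was at 7.89 CPM against 8.24 CPM. The 2 sets thus differed in size (log2 ratios of -4.79 and -0.06), each with 1 library of 1 genotype, and this was not tested. Col15a1 was near the detection limit, with 1 to 16 counts per library.

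Col7a1, the anchoring fibril collagen of skin, was at 1.45, 2.52 and 3.75 CPM in wild type and at 3.33, 2.59 and 2.9 CPM in Ythdf2-/-, with overlap and a log2 fold change of 0.19 ± 0.396 (SE). It was 0.55 ± 0.347 and without overlap when wild-type replicate 3 was left out, and -0.09 without wild-type replicate 1. Of the 6 beaded filament genes of collagen VI, only Col6a1 passed the filter. It was at 2.05, 2.59 and 3.02 CPM in wild type and at 1.71, 2.67 and 1.21 CPM in Ythdf2-/-, with overlap and a log2 fold change of -0.45 ± 0.385 (SE). Of its usual partners, Col6a2 had at most 9 counts, and Col6a3 had 28 counts in Ythdf2-/- replicate 1, above the 20 of Col6a1 there, and at most 6 in the other libraries. The usual collagen VI heterotrimer is made of these 3 chains.

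The FACITs were the most abundant collagen class, with 52.7 ± 29.7 RPKM in wild type and 28.3 ± 6.36 RPKM in Ythdf2-/- (SD, n = 3), and 7 of the 9 genes passed the filter. Of these 7, 6 were lower and 1 was higher in Ythdf2-/-, around a median of -0.80 (log2). Without wild-type replicate 3 the median was -0.37, with 6 lower and 2 higher of 8 tested. Of the 7, Col12a1 moved least on the log2 scale when this library was left out.

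Col12a1, a FACIT of tendon and dense connective tissue, was at 14.7, 12.9 and 19.9 CPM in wild type and at 7.08, 7.4 and 9.57 CPM in Ythdf2-/-. The groups were clearly apart, and both were compact. The means were 15.8 ± 3.61 and 8.02 ± 1.36 CPM (SD, n = 3), a log2 fold change of -0.98 ± 0.248 (SE, unadjusted p = 0.00671, adjusted p = 0.999, edgeR quasi-likelihood test). It was -0.78 ± 0.202 without wild-type replicate 3 (adjusted p = 0.191), and it ranged from -1.13 to -0.78 when each library was left out in turn.

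Col22a1, a FACIT of tissue junctions such as the myotendinous junction, was the only one of its class with a higher mean. It was at 1.63, 2.21 and 0.824 CPM in wild type and at 3.67, 2.52 and 4.59 CPM in Ythdf2-/-, without overlap. These were 9 to 29 counts against 34 to 57 counts, so counting error adds to the spread. The log2 fold change was 1.19 ± 0.445 (SE, unadjusted p = 0.0347, adjusted p = 0.999, edgeR quasi-likelihood test), or 0.89 ± 0.37 when wild-type replicate 3 was left out.

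The 3 chains of collagen IX, which form a heterotrimer on cartilage and vitreous fibrils, were far from equal. Col9a1 was at 3.08, 2.67 and 31 CPM in wild type and at 1.88, 1.78 and 1.05 CPM in Ythdf2-/-. It did not overlap between the groups, but its log2 fold change of -2.96 ± 1.07 (SE, unadjusted p = 0.0308, adjusted p = 0.999, edgeR quasi-likelihood test), the most negative of all members, became -0.87 ± 0.356 (adjusted p = 0.298) without wild-type replicate 3. Col9a2 had the same high library, with 4.88, 5.72 and 27.3 CPM against 7.85, 2.89 and 1.29 CPM, and its log2 fold change was -1.65 with all libraries and -0.41 without that one.

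Col9a3 had the highest mean RPKM of the collagens in both genotypes and in each library but Ythdf2-/- replicate 1, where Col4a5 and Col5a2 were higher. It was at 60.7, 59.8 and 99.5 CPM in wild type and at 34.6, 63.1 and 31.5 CPM in Ythdf2-/-, with Ythdf2-/- replicate 2 inside the wild-type range, and its log2 fold change was -0.77 ± 0.341 (SE, adjusted p = 0.999, edgeR quasi-likelihood test), or -0.48 ± 0.302 without wild-type replicate 3. In RPKM it was 24.2, 27.5 and 3.93 times Col9a1 in wild type and 22.6, 43.6 and 37 times in Ythdf2-/-, so wild-type replicate 3 had the most even chains. Col9a3 shares 237 bases of its exons with Tcfl5 on the opposite strand, and Tcfl5 had at most 9 counts.

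Col9a1 has 2 RefSeq starts, 1 for the long and 1 for the short form, and gene counts do not tell them apart. The stretches before both starts (GRCm38.p6, chromosome 1, plus strand) are printed because it showed the largest fold change. The first, chr1:24177360-24177588, ends 21 bases before the start, where an annotated exon of another transcript begins, and the second, chr1:24194953-24195202, reaches the start. Capitals mark CCAAT, found once before the second start, and neither stretch held GGGCGG or TATAAA.
Col9a1, first start: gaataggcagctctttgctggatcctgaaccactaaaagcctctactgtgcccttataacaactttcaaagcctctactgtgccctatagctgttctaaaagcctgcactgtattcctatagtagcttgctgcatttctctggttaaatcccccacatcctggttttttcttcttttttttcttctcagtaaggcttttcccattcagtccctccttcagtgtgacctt
Col9a1, second start: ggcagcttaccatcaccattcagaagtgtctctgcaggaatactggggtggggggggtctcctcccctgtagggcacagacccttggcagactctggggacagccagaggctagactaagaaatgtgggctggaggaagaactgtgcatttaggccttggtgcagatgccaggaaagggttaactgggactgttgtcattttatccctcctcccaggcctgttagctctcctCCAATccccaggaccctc

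Col16a1, a FACIT that bridges fibrils and other matrix structures, had the highest mean CPM of the class over the 6 libraries (67.2 against 58.2 for Col9a3), but without wild-type replicate 3 the means were 49.6 and 49.9, and Col9a3 was the higher in 3 of the 6 libraries. Col16a1 was at 50.2, 51 and 155 CPM in wild type and at 42.6, 52.8 and 51.6 CPM in Ythdf2-/-, and 5 of the 6 libraries were nearly equal. Its log2 fold change was -0.80 ± 0.467 (SE) with all libraries and -0.05 ± 0.124 without wild-type replicate 3. Col20a1 had 13 to 63 counts, with its highest value in the same library, and its log2 fold change turned from -0.45 to 0.71 without it. Col14a1 and Col19a1 were below the filter with at most 19 counts.

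Of the 26 members tested, 15 had their highest value in wild-type replicate 3, and in 10 of these (Col9a1, Col9a2, Col9a3, Col11a1, Col11a2, Col15a1, Col16a1, Col20a1, Col23a1 and Col27a1) it was over 1.5 times the next library. The other 5 were Col4a2, Col4a6, Col6a1, Col7a1 and Col12a1. Another 6 (Ddr2, Col5a1, Col5a2, Col5a3, Col22a1 and Col26a1) had their lowest value in it. The summed astrocyte, oligodendrocyte lineage, neuron, and pericyte and smooth muscle markers were highest in the same library, and all 8 astrocyte, 9 of 10 oligodendrocyte lineage, all 8 neuron and 6 of 10 pericyte and smooth muscle markers passed the filter. Lowest in it were 3 oligodendrocyte lineage, 1 neuron and 4 pericyte and smooth muscle genes. Its pericyte and smooth muscle sum was 285 CPM, close to the 278 CPM of Ythdf2-/- replicate 2. The part of these markers in the members' values was not tested.

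**Figure D4:**
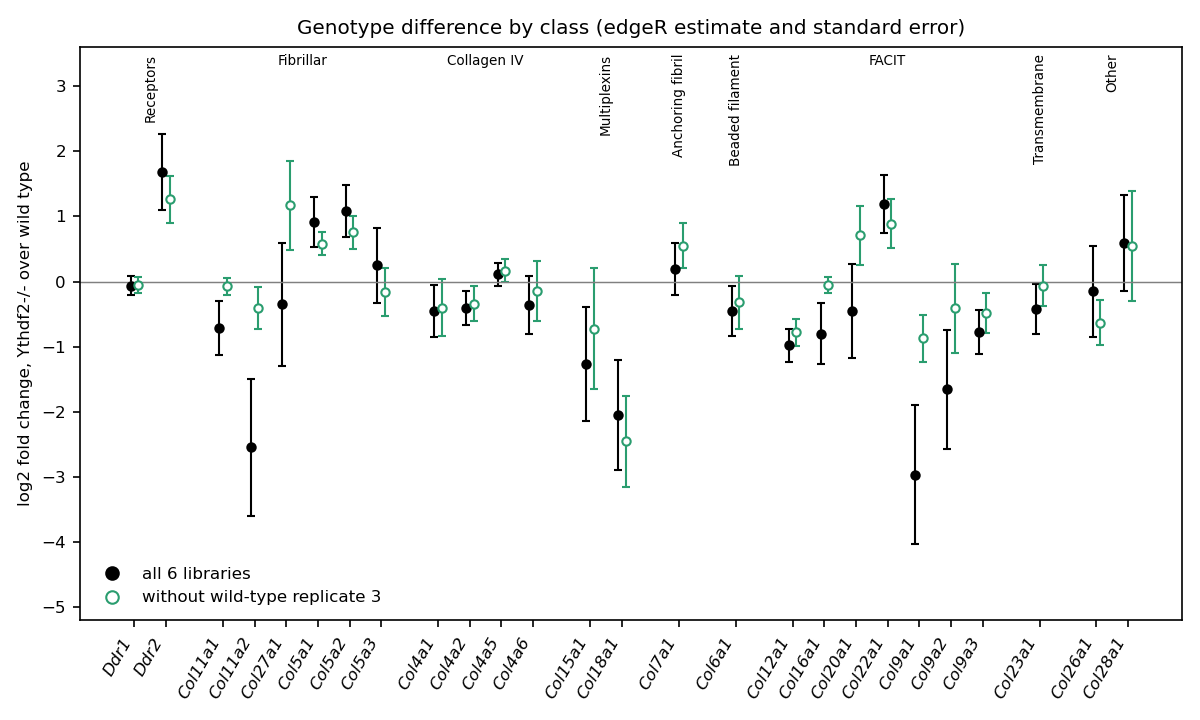
Log2 fold change, Ythdf2-/- over wild type, with its standard error for the 26 genes that passed the filter, grouped by class, with all 6 libraries (filled) and without wild-type replicate 3 (open). Ddr2, Col5a1, Col5a2, Col22a1, Col12a1 and Col18a1 keep their sign and most of their size, Col9a1 and Col11a2 move from -2.96 to -0.87 and from -2.54 to -0.40, and Col27a1, Col5a3 and Col20a1 change sign.

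Among the transmembrane collagens, which are shed type II membrane proteins, only Col23a1 passed the filter, with 2.91, 4.04 and 6.5 CPM in wild type and 4.01, 2.59 and 3.46 CPM in Ythdf2-/-. The groups overlapped, and its log2 fold change was -0.42 ± 0.38 (SE) and -0.06 without wild-type replicate 3. Col26a1, an emilin-related gene, was at 12.8, 14.7 and 2.11 CPM in wild type and at 7.08, 6.22 and 13.4 CPM in Ythdf2-/-. Its log2 fold change of -0.15 ± 0.693 (SE) had no stable sign. It was 0.07, 0.25 and -0.63 without wild-type replicates 1, 2 and 3 in turn, and -0.01, 0.05 and -0.57 without Ythdf2-/- replicates 1, 2 and 3. Col28a1 had 145 counts in Ythdf2-/- replicate 2 and 22 to 47 in the other libraries. The 20 genes below the filter were 5 fibrillar, 2 collagen IV, 5 collagen VI, 2 FACIT and 3 transmembrane genes and all 3 short-chain network genes (Col8a1, Col8a2 and Col10a1), and none of the 20 had more than 28 counts in any library.

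Of the 20 members chosen by the rule for named genes, Col4a5, Col7a1, Col16a1 and Col26a1 had opposite directions in the libraries with and without Y-linked reads. The 8 members whose groups did not overlap could not differ in this way. Each set held at least 1 library of each genotype but never more than 2, so no test was made within them.

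The genes that make, process, bind and remove collagen were considered next. The lists name enzymes and proteins by their known role. Of 20 genes for collagen biosynthesis and folding, 19 were tested, 6 higher and 13 lower in the fit, around a median of -0.03 (log2), and 6 higher and 13 lower around -0.17 without wild-type replicate 3. P4hb, a subunit of the prolyl hydroxylase, was at 484, 472 and 324 CPM against 392, 385 and 425 CPM, and Serpinh1, the collagen chaperone, at 196, 184 and 141 CPM against 179, 143 and 186 CPM. Mia3, which loads procollagen for export, was at 133, 129 and 157 CPM against 159, 149 and 161 CPM. None of these 3 had an unadjusted p under 0.05. In this list P3h4 was higher without overlap (9.41, 12.1 and 7.32 CPM against 13, 12.2 and 14.6 CPM, log2 fold change 0.47 ± 0.242, unadjusted p = 0.0999). The lysyl hydroxylase Plod1 (0.45 ± 0.115, unadjusted p = 0.00692) was higher and the glycosyltransferase Colgalt2 (-0.41 ± 0.156, unadjusted p = 0.0377) was lower, both without overlap, and these 3 genes were named after their values were seen (SE, adjusted p = 0.999, edgeR quasi-likelihood test). Of the 19 genes, 2 were higher and 1 lower without overlap, beside 5.24% and 4.92% of all genes tested. At an unadjusted p under 0.05, 1 was higher and 1 lower, beside 1.81% and 1.82%.

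Of 14 processing and crosslinking genes, 10 were tested, 8 higher and 2 lower, around a median of 0.26, but 5 higher and 5 lower around 0.06 without wild-type replicate 3. Bmp1, the procollagen C-proteinase, was at 155, 158 and 197 CPM against 139, 185 and 133 CPM, with overlap. Adamts14, a procollagen N-proteinase, was at 22.1, 18.5 and 0.641 CPM against 17.6, 10 and 20 CPM, and the lysyl oxidase Loxl3 was at 12.8, 11.9 and 14.6 CPM against 15.3, 14.1 and 15.1 CPM. Only Tll1 of this list had an unadjusted p under 0.05 (log2 fold change 0.95 ± 0.367, at 0.599 to 1.19 CPM against 1.53 to 1.88 CPM), and it did not overlap. Adamts2, another procollagen N-proteinase, did not overlap either (2.48, 1.91 and 2.75 CPM against 2.98, 3.92 and 2.82 CPM, log2 fold change 0.45 ± 0.296). Both were named after their values were seen. Of the 10 genes, 2 were higher without overlap, beside 5.24% of all genes tested. At an unadjusted p under 0.05, 1 was higher, beside 1.81%.

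Of 11 other collagen receptors, 9 were tested, 6 higher and 3 lower, around a median of 0.22, and 5 higher and 4 lower around 0.05 without wild-type replicate 3. None had an unadjusted p under 0.05. Adgrg1, the adhesion receptor for collagen III on radial glia, was at 684, 730 and 708 CPM in wild type and at 771, 765 and 958 CPM in Ythdf2-/-, without overlap (log2 fold change 0.23 ± 0.164). Adgrg6, an adhesion receptor named after its values were seen, was also higher without overlap (46.7, 46.6 and 13.6 CPM against 50.8, 50.6 and 51.5 CPM), with a log2 fold change of 0.51 ± 0.443, or 0.13 without wild-type replicate 3. These were 2 of the 9 genes, beside 5.24% of all genes tested that were higher without overlap. The Adgrg1 ligand gene Col3a1 was nearly absent from the same libraries. Itgb1, the β1 integrin subunit, was at 842, 811 and 476 CPM against 670, 648 and 753 CPM, and Cd44 at 78.1, 86 and 18.8 CPM against 69.8, 53.8 and 89.5 CPM, both with overlap.

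Of 15 collagen-binding matrix genes, 9 were tested, 3 with higher and 6 with lower means and none with an unadjusted p under 0.05. Sparcl1 was at 1083, 1474 and 1800 CPM against 1241, 149 and 997 CPM, Sparc at 242, 281 and 738 CPM against 220, 332 and 140 CPM, and Fbln2 at 352, 337 and 9.06 CPM against 50.1, 197 and 69.8 CPM. All overlapped, with a list median of -0.87 that was -0.10 without wild-type replicate 3. Of 14 genes for collagen breakdown and its inhibitors, 9 were tested, 4 with higher and 5 with lower means and a median of -0.16, or -0.03 without wild-type replicate 3. The collagenase Mmp14 had an unadjusted p of 0.0445, with 23.4, 22.3 and 33 CPM against 21.8, 10.2 and 11.3 CPM and no overlap. It was 1 of 9 genes, beside 4.92% of all genes tested that were lower without overlap. Lower at an unadjusted p under 0.05 were 1.82% of all genes. Ctsb (480, 551 and 654 against 571, 450 and 489 CPM), Mmp15 (571, 524 and 122 against 573, 347 and 632 CPM) and Timp3 (175, 203 and 390 against 257, 217 and 188 CPM) overlapped. No gene of the 5 lists had an adjusted p under 0.05.

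The promoter windows of 37 of the 46 members, from 250 bases before to 50 bases after each RefSeq start in GRCm38.p6, were searched for 3 motifs on both strands. GGGCGG was in 26 of 43 windows (60.5%), beside 35.7% of all 32851 windows of the table, CCAAT was in 14 (32.6%, beside 37.4%), and TATAAA was in 6 (14%, beside 13.6%). The windows of members above the filter held GGGCGG in 17 of 26 and those below it in 9 of 17. The median G and C content was 59.7% in the members' windows and 52.7% in all. These are matches of letters, and nothing was measured of binding to them. The windows of several members overlap or belong to the same gene, so they are not independent.

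The deposited gene tables gave another picture of the receptors. Their expected counts summed to 1.97% to 2.4% of the raw counts, and Ddr1 had only 1 to 13 expected counts per library, while Ddr2 had 6.39 to 21.3. In FPKM, Ddr2 was 5.21, 8.13 and 9.64 in wild type and 7.3, 7.07 and 2.94 in Ythdf2-/-, with overlap and with its highest value in wild-type replicate 3, where the raw counts were lowest. Ddr1 was 13.9, 2.11 and 8.32 FPKM against 1.17, 8.06 and 8.43 FPKM. On the log2(FPKM + 1) scale, which understates changes of low genes, the log2 fold change of Ddr2 was -0.40, opposite in sign to that from the counts. The source of the disagreement between the tables was not tested.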

How the data were processed

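Input RNA-seq libraries of E14.5 neurospheres, 3 wild type and 3 Ythdf2-/-, were grouped by the genotype in the sample labels. The authors deposited raw read counts by gene, not normalized, and per-library gene tables with expected counts, TPM and FPKM in the layout of RSEM output. The submitters' processing notes name Bowtie2 2.2.9, RSEM 1.2.15, featureCounts and mm10, without roles or strand setting. Libraries came from a stranded kit. TPM was not used.

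Counts were scaled with TMM factors and 13112 genes passing filterByExpr were tested with edgeR 4.0.16 (robust glmQLFit, glmQLFTest, genotype as the only term, Benjamini-Hochberg adjustment) in R 4.3.3. SE is the log2 fold change divided by the root of F. Alternatives used DESeq2 1.42.0 and limma 3.58.1, also on log2(FPKM + 1). RPKM is TMM-scaled CPM per kilobase of the mean length in the deposited tables. A library counted as holding Y-linked reads when Ddx3y, Uty, Kdm5d and Eif2s3y summed above 3. Scripts were tested on simulated data. Depth was 11029827 to 13185778 counts, and intervals from counting error alone were not computed.

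Members and lists were chosen with earlier results of these data known. Named with a value in every library were Ddr1 and Ddr2, the 3 fibrillar genes highest in CPM, all collagen IV genes tested, the highest gene of each other class, every member with an unadjusted p under 0.05 or without overlap, the 3 highest genes of each list, and Ythdf2. Chains of a heterotrimer were set side by side. Python 3.11.15, numpy 2.4.6, pandas 2.3.3 and matplotlib 3.10.9 were used. Promoter sequences come from RefSeq (GRCm38.p6), for 37 of 46 members. Protein sequences were not used here.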

Additional observations from a re-analysis of the deposited data

How the results depend on the processing

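The number of all genes with an adjusted p under 0.05 was 0, and it was 1 with RLE normalization, with no filter or with at least 10 counts in every library, 31 with DESeq2, 632 with quality weights, 13 with a Y-linked term (an alternative added once the data had been seen), 2, 1 and 2 with limma on FPKM (pseudocount 1, pseudocount 0.1 and no filter), and 0 to 2 when each library was left out. Of the members, 5 had an adjusted p under 0.05 with quality weights and none under the other alternatives. The members with an unadjusted p under 0.05 were 3 higher and 3 lower. They were 6 higher and 7 lower with quality weights (beside 29.9% of all genes at that threshold) and 5 and 8 with the Y-linked term (beside 11%). Under each FPKM alternative they were 0 and 0 (beside 2.88% to 4.28%). Only 9 members were tested there with pseudocount 1 or 0.1, and 28 with no filter. Without 1 library they were 0 to 3 higher and 1 to 5 lower (beside 1.85% to 16.6%). With no filter on the counts 5 were lower (beside 1.85% lower). Deviations of same-numbered libraries of the 2 genotypes had correlations of -0.248, -0.244 and -0.394. They were taken from means of 3 libraries, and wild-type replicate 3 stood apart, so they cannot decide whether the numbers mark a pairing. With the replicate number as a block 1 member was higher and 2 were lower (beside 1.4% of all genes), with 0 genes called.

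Of 322 log2 fold changes of the 20 named members under an alternative, 302 kept their direction and 20 reversed, in 9 genes. Ddr2 stayed higher in the count fits, with an adjusted p under 0.05 only with quality weights (1.29), and was -0.40, -0.47 and -0.40 with FPKM (pseudocount 1, 0.1 and no filter). With unfiltered FPKM, Col11a1 was 0.33, Col18a1 0.01, Col27a1 0.22 and Col4a2 0.36, and the collagen IV median was 0.36. These genes had only 6, 8, 4 and 5 expected counts in all libraries together. The collagen IV median was -0.16 with filtered FPKM at pseudocount 1 and -0.55 at pseudocount 0.1. With quality weights Col23a1 was 0.05 and Col27a1 0.77. Under the replicate block Col26a1 was 0.03 and Col27a1 0.19, and Col26a1 was 0.13 with limma-voom and 0.71 with the Y-linked term. Without 1 library, Col26a1 ranged from -0.63 to 0.25, Col27a1 from -1.06 to 1.17, Col4a5 from -0.06 to 0.23 and Col7a1 from -0.09 to 0.55. Without 1 library, 4 to 11 of 26 members were lower without overlap, beside 7.12% to 20% of all genes. The 11 (without Ythdf2-/- replicate 2) were beside 11.1%. Without wild-type replicate 3, 5 were lower beside 20% and 5 higher beside 18.9%. In the other settings without 1 library 4 were higher. In FPKM, 0 members were higher and 0 lower without overlap, and the share over all genes was not computed. Col9a1, Col11a2 and Col22a1, which did not overlap in the counts, had 0 expected counts, so FPKM could not separate their groups. Between FPKM and RPKM, 5 of the 10 highest members were shared. The cause of these changes was not tested. Members under the filter, and Col15a1 and Col22a1 with few counts, are limited by depth.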
